A study of Mus musculus with 18 samples.

Results

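A set of 9 genes that move ions, calcium and water across epithelium was followed in mouse lung tumors: the chloride channel gene Cftr, the sodium channel genes Scnn1a, Scnn1b and Scnn1g, the sodium pump regulator Fxyd3, the cotransporter Slc12a2, the calcium channel gene Trpv6, the calcium-binding protein gene S100g and the water channel gene Aqp4. These 9 genes were taken by symbol from the 18193 genes tested, and all 9 were measured, by 14 probe sets. Where a gene had several probe sets, the one with the highest mean over the arrays was used and the others served as a check. The genes were chosen by name with earlier differences between these groups in view, which counts as selection on the measured values, so the values below are a description, and the adjusted p-values show where each gene stood in the fit of all genes and are not independent evidence.

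The samples were treated tumors, dissected from lungs of mice that had inhaled antimony trioxide, spontaneous tumors, which carry no exposure in their labels, and control lung of vehicle animals. All came from B6C3F1/N mice, a hybrid strain of long-term toxicology, and the series calls the tumors alveolar/bronchiolar carcinomas. Whole-body exposure to the aerosol began at 5 to 6 weeks of age, at 3, 10 or 30 mg per cubic metre, in 5 sessions a week of 6 hours and 12 minutes each, and ended after 105 weeks at the latest. The labels give neither the animal, its sex, its age at sampling nor the concentration behind a tumor, so a p-value here covers the spread between samples, which may be partly technical, and tumor and control differ in tissue make-up as well as in disease.

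Of 18 arrays, 15 were used, 6 of treated tumors, 4 of spontaneous tumors and 5 of control lung. Spontaneous tumors 5 and 6 and control 5 were left out, because their median Pearson correlation with the other arrays was 0.30 to 0.48, against 0.92 to 0.97 for the 15 kept, a description of array quality across probe sets. The hybridization spike bioB, a bacterial transcript, read 10.39 to 10.75 log2 units on treated tumor arrays, 10.31 to 10.61 on spontaneous tumor arrays and 10.81 to 11.40 on control arrays, so this technical measure also differed between tumor and control, and its part in the results was not tested. Pan-epithelial markers, the lung transcription factor gene Nkx2-1 among them, had array medians of 11.79 to 12.37 in treated tumors, 11.83 to 12.10 in spontaneous tumors and 11.02 to 12.02 in control lung. Of 6 such markers, 4 were higher than control in treated and 3 in spontaneous tumors, and 0 were lower (limma, adjusted p under 0.05). Over all genes 23.8% and 20.1% were higher. All values are log2 values after RMA, and the level of one gene cannot be set against that of another.

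Airway and alveolar epithelium sets the depth of the liquid on its surface by moving salt, and water follows. The epithelial sodium channel, built from alpha, beta and gamma subunits encoded by Scnn1a, Scnn1b and Scnn1g, takes up sodium at the apical side, and the sodium pump removes it at the base of the cell. Chloride enters at the base through the sodium-potassium-chloride cotransporter encoded by Slc12a2 and leaves at the apical side through the channel encoded by Cftr. Calcium uptake across epithelium, best known from intestine and kidney, uses the apical channel Trpv6 and a cytosolic buffer such as calbindin-D9k, the product of S100g.

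Trpv6, S100g and Slc12a2 were higher in both kinds of tumor than in control lung, and Scnn1b, Scnn1g, Scnn1a and Aqp4 were lower in both. Cftr was lower in treated tumors, and Fxyd3 was lower in spontaneous tumors. In these bulk samples, fewer cells of a type and less RNA per cell cannot be told apart. By limma, with an adjusted p under 0.05 over all genes as the call, 8 of 9 genes differed between treated tumor and control, 3 higher and 5 lower, where 38.8% of all genes were called, 23.8% higher and 15% lower. Between spontaneous tumor and control 8 of 9 differed, 3 higher and 5 lower, where 33.0% of all genes were called, 20.1% higher and 12.9% lower. Between treated and spontaneous tumor 1 of 9 differed, Fxyd3, where 0.0550% of all genes were called, 0.0330% higher and 0.0220% lower. Treated tumor and control arrays did not overlap in 6 of the 9 genes, against 24.5% of all genes (2 higher, 14.4%, and 4 lower, 10.1%). Spontaneous tumor and control arrays did not overlap in 7 of the 9, against 29.3% (3 higher, 17.8%, and 4 lower, 11.4%). Treated and spontaneous tumors did not overlap in 1 of the 9, against 1.63% (0.830% higher and 0.797% lower). Because the genes were chosen with results known, nothing is read from these shares. The median log2 fold change of the 9 genes was -1.14 in treated and -1.29 in spontaneous tumors relative to control, where the median of all genes was 0.089 and 0.12. Between the 2 kinds of tumor it was 0.0052, where the median of all genes was -0.023. The comparisons with control share the same 5 control arrays.

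**Figure D1:**
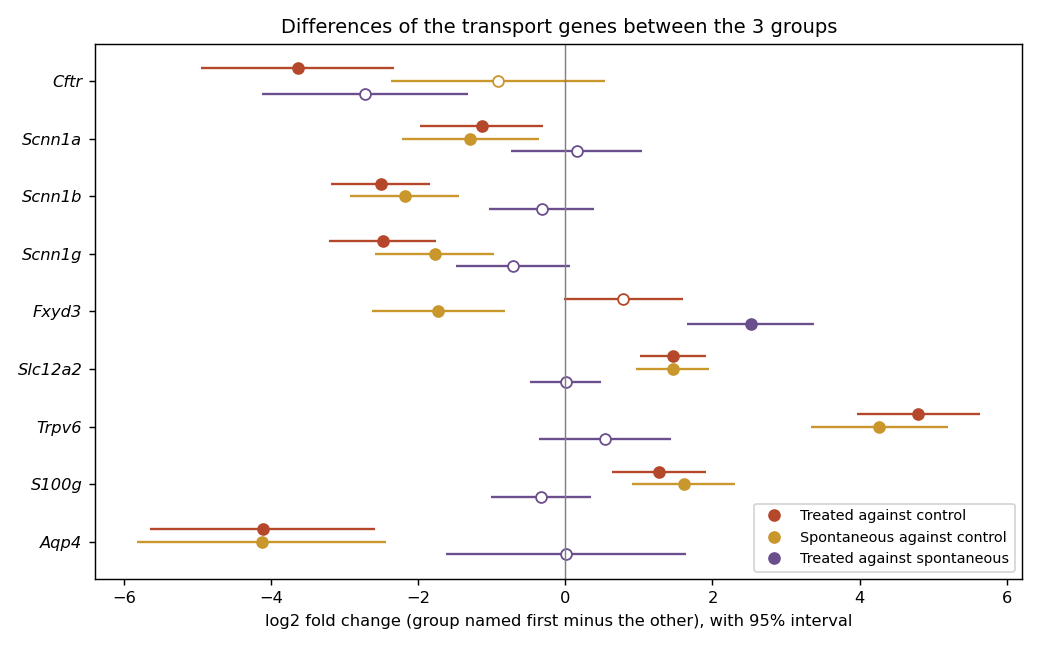
Log2 fold change of each of the 9 genes (horizontal axis, group named first minus the other) with its 95% interval from limma, for treated tumors relative to control, for spontaneous tumors relative to control and for treated relative to spontaneous tumors. Filled points have an adjusted p under 0.05 over all genes; Trpv6 stands furthest to the right and Aqp4 furthest to the left among the comparisons with control.

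Trpv6, the calcium channel, had the greatest difference of the 9 genes. It read from 9.74 to 11.48 log2 units in treated tumors, with a median of 10.91. In spontaneous tumors 1 to 4 it read 11.24, 9.43, 9.13 and 11.03, and in control lung, arrays 1, 2, 3, 4 and 6, it read 6.22, 5.59, 5.73, 6.01 and 6.16. Every tumor array lay above every control array. The log2 fold change was 4.80 ± 0.39 (SE) for treated tumor against control, a 27.8-fold difference (limma, adjusted p = 3.3e-07), and 4.26 ± 0.44 for spontaneous tumor against control, a 19.2-fold difference (adjusted p = 4.4e-06). Among all 18193 genes these were the rises of rank 14 and 15. The difference in spontaneous tumors was 3.0 with all 18 arrays and was still called (adjusted p = 0.0085). Treated and spontaneous tumors differed by 0.54, not called, with a 95% interval from -0.36 to 1.43 (limma adjusted p = 0.76).

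S100g encodes calbindin-D9k, which buffers calcium inside absorptive cells. It read from 9.84 to 10.88 in treated tumors, with a median of 10.60. In spontaneous tumors 1 to 4 it read 9.95, 11.34, 11.53 and 10.65, and in control lung 8.74, 9.78, 9.20, 8.68 and 9.89. Spontaneous tumors lay above all control arrays, while treated tumor 3, at 9.84, fell just below the highest control at 9.89. Treated tumors exceeded control by a log2 fold change of 1.27 ± 0.30 (limma, adjusted p = 0.0033), and spontaneous tumors by 1.61 ± 0.33 (adjusted p = 0.0017). With all 18 arrays the rise in spontaneous tumors was 1.25 and was not called (adjusted p = 0.062). The difference between treated and spontaneous tumors was -0.33, with a 95% interval from -1.01 to 0.34. Macrophage markers had array medians of 9.59 to 11.64 in treated tumors, 9.50 to 11.37 in spontaneous tumors and 7.36 to 11.37 in control lung. The middle values were 10.24, 10.37 and 8.52. The part of macrophages in the values of S100g was not tested.

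Both calcium genes were higher in both tumor groups, and their promoter windows, from 250 bases before to 50 after the annotated start (RefSeq, GRCm38.p6), are shown for that reason: Trpv6 at chr6:41636356-41636655, minus strand, and S100g at chrX:162964550-162964849, minus strand. Each is printed from 5′ to 3′ along its gene, with matches to the 5 motifs searched on both strands in capitals.
Trpv6: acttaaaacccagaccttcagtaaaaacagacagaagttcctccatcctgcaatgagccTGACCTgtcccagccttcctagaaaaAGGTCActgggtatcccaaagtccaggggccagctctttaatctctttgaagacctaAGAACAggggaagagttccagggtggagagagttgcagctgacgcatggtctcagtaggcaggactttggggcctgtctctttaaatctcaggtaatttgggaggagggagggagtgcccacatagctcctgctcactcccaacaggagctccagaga
S100g: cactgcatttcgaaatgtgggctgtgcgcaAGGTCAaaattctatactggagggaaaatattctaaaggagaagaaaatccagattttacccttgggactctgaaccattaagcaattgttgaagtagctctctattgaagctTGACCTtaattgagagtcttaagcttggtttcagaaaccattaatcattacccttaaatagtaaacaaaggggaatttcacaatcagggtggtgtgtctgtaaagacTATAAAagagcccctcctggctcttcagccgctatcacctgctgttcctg
The motifs were TATAAA, the TATA box; GGGCGG, the GC box; AGGTCA, a half-site of nuclear receptors such as the vitamin D receptor; AGAACA, a half-site of steroid receptors; and CAAGTG, a core bound by NKX2-1. None of these motifs contains another, though matches may share bases. Both windows held AGGTCA on each strand, 2 matches apiece, and 16.3% of all 32851 RefSeq promoter windows of this length held it at least once. The Trpv6 window also held 1 AGAACA, found in 19.0% of windows, and the S100g window 1 TATAAA, found in 13.6%. That TATAAA began at the annotated start itself and not before it. GC content was 51.3% for Trpv6 and 41.0% for S100g, against a median of 52.7% over all windows. These are matches of letters and not binding sites.

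Of the other genes of transcellular calcium transport, 15 were tested of 17 listed, and most were not called. In treated tumors 2 rose, 3 fell and 10 were not called, with a median log2 fold change of -0.12, and in spontaneous tumors 1 rose, 5 fell and 9 were not called, with a median of -0.17. Over all genes 38.8% were called in treated and 33.0% in spontaneous tumors. The calcium pumps of the plasma membrane, which carry calcium out of the cell, were among those that fell. Atp2b2 was at -1.47 ± 0.15 in treated and -1.45 ± 0.16 in spontaneous tumors against control (limma, adjusted p = 2.5e-06 and 1.2e-05). Atp2b4 was at -1.23 ± 0.24 and -0.83 ± 0.26. Atp2b1 was at -0.22 ± 0.12 in treated tumors, not called, and at -0.45 ± 0.13 in spontaneous tumors, called. Tmbim1, a transmembrane protein of endosomes and lysosomes, fell in both, at -0.32 ± 0.12 and -0.49 ± 0.13.

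Slc12a2, the cotransporter that loads epithelial cells with chloride, was higher in every tumor than in any control. It read from 12.09 to 12.87 in treated tumors, with a median of 12.62. In spontaneous tumors 1 to 4 it read 12.72, 11.95, 12.43 and 13.02, and in control lung 11.51, 10.65, 11.03, 11.34 and 10.83. Relative to control, the log2 fold change was 1.46 ± 0.21 for treated tumors, a 2.76-fold difference (limma, adjusted p = 7.2e-05), and 1.46 ± 0.23 for spontaneous tumors, a 2.75-fold difference (adjusted p = 0.00025). With all 18 arrays the rise in spontaneous tumors was 1.51 and was not called (adjusted p = 0.064). Its other 2 probe sets gave 1.74 ± 0.21 and 1.77 ± 0.24 in treated tumors and 1.81 ± 0.24 and 1.83 ± 0.27 in spontaneous tumors. The difference between treated and spontaneous tumors was 0.0052, with a 95% interval from -0.47 to 0.48.

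Among the other cation chloride cotransporters and the kinases that control them, 13 tested of 14 listed, 4 rose and the other 9 were not called in treated tumors, with a median log2 fold change of 0.066. In spontaneous tumors 4 rose and 2 fell, with a median of 0.17. Over all genes 38.8% were called in treated and 33.0% in spontaneous tumors. Stk39 encodes SPAK, the kinase that phosphorylates and activates the Slc12a2 product. It rose by 3.69 ± 0.25 in treated and by 3.36 ± 0.28 in spontaneous tumors (limma, adjusted p = 6.7e-08 and 7.6e-07). Wnk4 and Wnk3, kinases that act on SPAK, rose by 1.12 ± 0.22 and 0.70 ± 0.17 in treated tumors and by 1.44 ± 0.25 and 0.75 ± 0.19 in spontaneous tumors. Slc12a8 rose in treated tumors at 0.70 ± 0.20 and was at 0.20 ± 0.22 in spontaneous tumors, not called, and treated and spontaneous tumors differed by 0.50 ± 0.21 (limma adjusted p = 0.53).

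Cftr encodes the anion channel mutated in cystic fibrosis, and it varied more among spontaneous tumors than any other of the 9 genes, over 4.74 log2 units. In treated tumors it read from 4.01 to 5.08, with a median of 4.70. In spontaneous tumors 1 to 4 it read 4.71, 8.32, 9.45 and 6.87, and in control lung 8.60, 7.03, 8.52, 8.94 and 8.17. Treated tumors all lay below every control, and spontaneous tumors ran from the treated level, in tumor 1, to above the highest control, in tumor 3. Treated tumors differed from control by -3.64 ± 0.62, 12.5-fold lower (limma, adjusted p = 0.00028), and spontaneous tumors by -0.92 ± 0.68, not called, with a 95% interval from -2.37 to 0.54 (adjusted p = 0.33).

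In Cftr, treated tumors differed from spontaneous tumors by -2.72 ± 0.66 log2 units, rank 4 among all genes from the lowest, but this was not called (limma adjusted p = 0.22, and p = 0.019 unadjusted in an exact two-sided permutation test, 1 of 27 such tests of these genes). Single spontaneous tumors moved this value in both directions. Without tumor 1, the one at the treated level, the difference was -3.60 and limma called it (adjusted p = 0.016), and without tumor 3, the highest, it was -2.02 and was not called (adjusted p = 0.50). The difference from control in spontaneous tumors was -0.040 without tumor 1 and -1.62 without tumor 3, not called either way (limma, adjusted p = 0.96 and 0.059). The second Cftr probe set read from 2.19 to 2.62 in treated tumors, low values whose spread may be understated. In spontaneous tumors 1 to 4 it read 2.00, 4.78, 6.86 and 2.97, and in control lung 5.19, 3.48, 5.67, 5.71 and 4.99. It placed the spontaneous tumors in the same order, with log2 fold changes of -2.63 ± 0.64 for treated tumor against control (limma, adjusted p = 0.0046) and -0.85 ± 0.71 for spontaneous tumor against control.

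**Figure D2:**
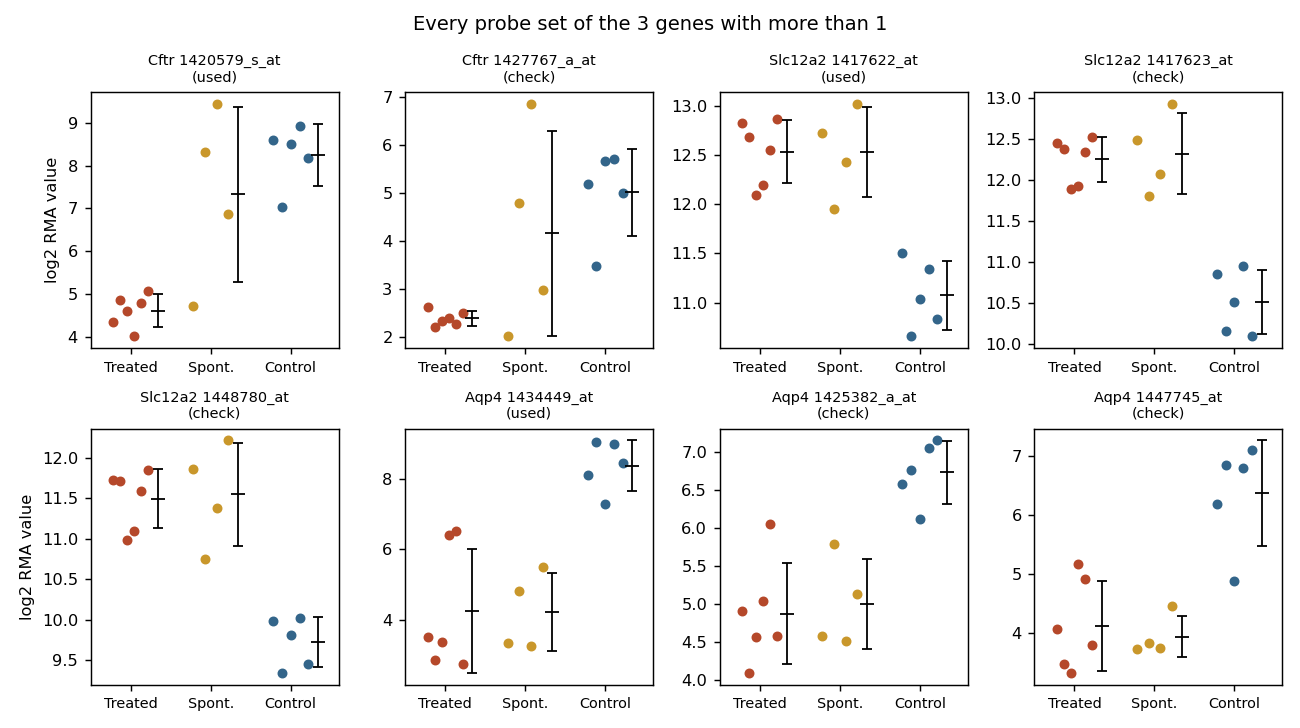
Log2 RMA value (vertical axis) on each of the 15 arrays for every probe set of Cftr, Slc12a2 and Aqp4, with treated tumors, spontaneous tumors and control lung from left to right; bars give mean and SD. Both Cftr probe sets spread widely in spontaneous tumors and little in treated tumors, where low values may understate the spread. The probe sets of Slc12a2 and of Aqp4 run in the same direction.

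The Cftr promoter window is shown because this gene differed among tumors of 1 kind (chr6:18170437-18170736, plus strand, GRCm38.p6, RefSeq), with the same 5 motifs in capitals.
Cftr: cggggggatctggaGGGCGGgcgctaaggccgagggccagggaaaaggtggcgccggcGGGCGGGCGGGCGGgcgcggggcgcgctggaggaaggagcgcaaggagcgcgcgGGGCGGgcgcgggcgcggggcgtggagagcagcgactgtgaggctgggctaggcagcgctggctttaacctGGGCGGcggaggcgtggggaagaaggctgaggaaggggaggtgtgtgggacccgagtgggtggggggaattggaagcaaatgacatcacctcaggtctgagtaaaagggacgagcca
It held 6 matches to GGGCGG, of which 3 form 1 run and share bases, and none to the other 4 motifs. GGGCGG was present in 35.7% of all windows, and the GC content of this window was 71.3%.

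Of the other chloride and bicarbonate transporters, 16 tested of 18 listed, 4 rose and the other 12 were not called in treated tumors, and 6 rose and the other 10 were not called in spontaneous tumors. Over all genes 38.8% were called in treated tumors, 23.8% higher, and 33.0% in spontaneous tumors, 20.1% higher. The list's median log2 fold change was 0.10 and 0.32, against 0.089 and 0.12 over all genes. Slc26a4 encodes pendrin, an exchanger of chloride for bicarbonate and iodide. It rose by 2.11 ± 0.73 in treated and by 3.82 ± 0.81 in spontaneous tumors (limma, adjusted p = 0.032 and 0.0021), and the 2 kinds of tumor differed by -1.71 ± 0.78 (adjusted p = 0.56). Clcn3, an endosomal chloride and proton exchanger, rose by 0.57 ± 0.11 and 0.62 ± 0.12, and the chloride channel gene Clcn2 by 0.82 ± 0.20 and 0.66 ± 0.23. Slc4a2, an anion exchanger, was at 0.28 ± 0.15 in treated tumors, not called, and rose by 0.62 ± 0.16 in spontaneous tumors. Ionocytes, rare airway cells rich in Cftr, have Foxi1 and Ascl3 as markers, and limma called 0 of 3 markers tested in any comparison, although the third marker, Atp6v0d2, which macrophages also express, was higher in tumors at an unadjusted p of 0.037 in treated and 0.043 in spontaneous tumors. The lowest to highest array median of these markers was 4.91 to 6.25 in treated tumors, 4.99 to 6.15 in spontaneous tumors and 5.25 to 5.65 in control lung. Foxi1 averaged 2.99 in treated tumors, 3.25 in spontaneous tumors and 3.22 in control lung. At such low values a change in rare cells could go unseen, so nothing is concluded from the 0 of 3.

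All 3 genes of the epithelial sodium channel were lower in tumors than in control lung. For Scnn1b, the beta subunit, treated tumors read from 6.67 to 8.12, with a median of 7.59. Spontaneous tumors 1 to 4 read 6.91, 8.56, 8.14 and 7.81, and control lung 10.38, 9.46, 10.01, 10.72 and 9.64. No tumor reached the lowest control, and the log2 fold change was -2.51 ± 0.32 for treated tumor against control, 5.68-fold lower, and -2.19 ± 0.35 for spontaneous tumor against control, 4.55-fold lower (limma, adjusted p = 2.1e-05 and 0.00025).

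Scnn1g encodes the gamma subunit. Treated tumors read from 6.78 to 9.05, with a median of 7.56. Spontaneous tumors 1 to 4 read 8.33, 8.71, 8.46 and 8.19, and control lung 10.13, 10.07, 10.18, 10.49 and 10.12. Control and tumor arrays did not overlap, and treated tumors spread over 2.26 log2 units where spontaneous tumors spread over 0.52. Differences from control were -2.48 ± 0.34 in treated and -1.77 ± 0.38 in spontaneous tumors (limma, adjusted p = 4.7e-05 and 0.0023). With the 3 arrays that were left out added back, these became -1.67 and -1.74 and were not called (adjusted p = 0.24 and 0.30), where control 5 read 5.34 and spontaneous tumors 5 and 6 read 6.03 and 6.19.

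Scnn1a, the alpha subunit, had a smaller and less secure difference. Treated tumors read from 8.43 to 10.36, with a median of 8.87. Spontaneous tumors 1 to 4 read 7.74, 10.07, 9.62 and 8.39, and control lung 10.29, 10.60, 10.04, 10.29 and 10.01. Treated tumor 3, at 10.36, and spontaneous tumor 2, at 10.07, lay within the control range, and the other 8 tumors below it. The difference came to -1.14 ± 0.39 in treated and -1.29 ± 0.43 in spontaneous tumors relative to control (limma, adjusted p = 0.032 and 0.033). For treated tumors the call was lost without control 1, 2 or 4 or without treated tumor 1, 2, 4 or 6, 7 of 15 arrays, with values of -1.0 to -1.12 and adjusted p of 0.054 to 0.069. For spontaneous tumors it was lost without control 1, 2 or 4 or without spontaneous tumor 1 or 4, 5 of 15 arrays, with values of -0.89 to -1.28 and adjusted p of 0.057 to 0.12. With all 18 arrays the difference was -0.54 in treated and -1.22 in spontaneous tumors, not called (limma, adjusted p = 0.68 and 0.42), and the exact permutation test adjusted over all genes did not call it in spontaneous tumors (adjusted p = 0.069). For none of the 3 subunits did treated and spontaneous tumors differ by limma (adjusted p = 0.62 to 0.94).

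Windows of Scnn1b (chr7:121864788-121865087, plus strand) and Scnn1g (chr7:121734229-121734528, plus strand), from RefSeq on GRCm38.p6, are shown because both genes, on the same chromosome, were lower in all tumors. The Scnn1g window was not set on the first base of its gene, chr7:121734420, but on a position further inside the gene.
Scnn1b: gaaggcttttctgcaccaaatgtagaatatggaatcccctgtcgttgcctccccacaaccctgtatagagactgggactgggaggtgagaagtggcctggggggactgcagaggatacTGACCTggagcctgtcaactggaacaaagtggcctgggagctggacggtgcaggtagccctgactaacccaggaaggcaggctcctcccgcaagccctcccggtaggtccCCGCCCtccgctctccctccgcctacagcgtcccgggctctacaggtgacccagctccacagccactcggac
Scnn1g: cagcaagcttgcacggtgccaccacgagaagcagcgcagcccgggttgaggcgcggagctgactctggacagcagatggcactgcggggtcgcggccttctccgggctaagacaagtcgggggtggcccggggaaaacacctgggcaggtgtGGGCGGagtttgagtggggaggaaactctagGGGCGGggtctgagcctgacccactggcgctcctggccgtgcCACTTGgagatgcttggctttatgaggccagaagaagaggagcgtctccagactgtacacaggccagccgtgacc
In capitals, the Scnn1b window held 1 GGGCGG and 1 AGGTCA, and the Scnn1g window 2 GGGCGG and 1 CAAGTG. The motif of NKX2-1 was present in 13.6% of all windows. GC content was 61.7% and 64.7%. Windows were examined for 6 of the 9 genes, not for Scnn1a, Slc12a2 and Aqp4, and that of Fxyd3 held 0 matches to the 5 motifs.

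Of the regulators of sodium absorption, 19 were tested of 20 listed. In treated tumors 6 rose, 1 fell and 12 were not called, with a median log2 fold change of 0.23, and in spontaneous tumors 7 rose, 2 fell and 10 were not called, with a median of 0.22. Over all genes 38.8% were called in treated tumors, 23.8% higher, and 33.0% in spontaneous tumors, 20.1% higher. Hsd11b2, the enzyme that shields the mineralocorticoid receptor from glucocorticoid, rose by 3.08 ± 0.49 in treated and by 2.77 ± 0.55 in spontaneous tumors (limma, adjusted p = 0.00018 and 0.0013). Tmprss4, a serine protease able to activate the channel, rose by 1.46 ± 0.24 and 1.82 ± 0.27, and Spint1, an inhibitor of such proteases, by 1.19 ± 0.13 and 1.21 ± 0.14. Usp2, a deubiquitinase that acts on the channel, fell, at -2.19 ± 0.27 and -2.21 ± 0.30.

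Fxyd3 was the gene that differed between the 2 kinds of tumor. It encodes a small membrane protein that modulates the sodium pump. Treated tumors read from 6.81 to 9.23, with a median of 8.19. Spontaneous tumors 1 to 4 read 5.17, 5.67, 5.39 and 6.38, and control lung 6.99, 8.07, 6.85, 7.10 and 7.88. Every spontaneous tumor lay below every control and every treated tumor, and treated tumors overlapped control lung.

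In Fxyd3, treated exceeded spontaneous tumors by 2.52 ± 0.41 log2 units, 5.73-fold, with a 95% interval from 1.65 to 3.39 (limma, adjusted p = 0.0485), the rise of rank 8 among all genes. This adjusted p lay at the threshold, and Fxyd3 passed in 6 of the 26 alternative analyses, with adjusted p from 0.0076 to 0.60. Among these, Fxyd3 passed the fold change of at least 2 by construction, because that alternative reused the main p-values. On leaving out 1 array at a time it passed without treated tumor 1 or spontaneous tumor 4 and was lost in the other 13 cases, with adjusted p up to 0.18. The difference itself stayed between 1.89 and 2.79. Its exact two-sided permutation p was 0.0048, the smallest that 6 against 4 arrays allow, and 0.60 after adjustment over all genes. With its smallest p bounded by the number of arrays, that test called 0 of all genes, so nothing is concluded from the adjusted value. Relative to control, treated tumors stood at 0.79 ± 0.38, not called (limma, adjusted p = 0.12), and spontaneous tumors at -1.73 ± 0.42 (adjusted p = 0.0058). Spontaneous tumors 5 and 6, left out for array quality, read 7.23 and 7.85, and with all 18 arrays the difference between tumors was 1.89 (adjusted p = 0.41). With all 18 arrays the difference of spontaneous tumors from control was -1.10 and was no longer called (adjusted p = 0.29). That of treated tumors from control was called without treated tumor 1, at 1.06 (limma, adjusted p = 0.020).

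The other FXYD genes, 6 tested of 6 listed, went different ways, and none differed between treated and spontaneous tumors by limma, with adjusted p from 0.73 to 0.99. Fxyd1, phospholemman, the pump regulator of heart and muscle, fell, at -3.06 ± 0.29 in treated and -2.62 ± 0.33 in spontaneous tumors. Fxyd6 fell too, at -1.61 ± 0.35 and -1.53 ± 0.39. Fxyd4, known from kidney collecting duct and colon, rose by 2.51 ± 0.69 and 2.89 ± 0.76 (limma, adjusted p = 0.0092 in both). Fxyd2, the gamma subunit of the kidney pump, was at -0.20 ± 0.13 and -0.19 ± 0.15, not called. Of all genes, limma called 38.8% in treated and 33.0% in spontaneous tumors, in either direction. Smooth muscle markers, which include Myh11 and Des, were lower too, 5 of 5 in both tumor groups. Their array medians ran from 7.07 to 7.61 in treated tumors, from 7.24 to 8.03 in spontaneous tumors and from 10.38 to 11.75 in control lung, and their part in the fall of Fxyd1 was not tested.

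Aqp4, a water channel of the basolateral membrane, was lower in every tumor than in any control. Treated tumors read from 2.76 to 6.53, with a median of 3.46. Spontaneous tumors 1 to 4 read 3.36, 4.82, 3.26 and 5.49, and control lung 8.10, 9.02, 7.27, 8.97 and 8.44. Among treated tumors, 4 and 5 stood at 6.42 and 6.53, and the others at or below 3.53. Its log2 fold change was -4.11 ± 0.72 in treated tumors, 17.3-fold lower than control, and -4.13 ± 0.79 in spontaneous tumors, 17.5-fold lower (limma, adjusted p = 0.00036 and 0.0011). The other 2 probe sets gave -1.85 ± 0.31 and -2.24 ± 0.40 in treated tumors and -1.73 ± 0.35 and -2.42 ± 0.44 in spontaneous tumors, so the size depended on the probe set and the direction did not. The chosen probe set gave -3.24 in spontaneous tumors with all 18 arrays (adjusted p = 0.012).

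Of the other water channels, 8 tested of 8 listed, 2 fell and the other 6 were not called in treated tumors. In spontaneous tumors 1 rose, 2 fell and 5 were not called. For comparison, limma called 38.8% of all genes in treated and 33.0% in spontaneous tumors, in either direction. Aqp1, the water channel of capillary endothelium, fell, at -1.90 ± 0.25 in treated and -2.13 ± 0.28 in spontaneous tumors (limma, adjusted p = 3.6e-05 and 4.5e-05). Aqp11, an intracellular channel, fell, at -0.39 ± 0.09 and -0.40 ± 0.10. Aqp2, the channel of the kidney collecting duct, rose in spontaneous tumors at 0.45 ± 0.14 and was at 0.28 ± 0.13 in treated tumors, not called. Aqp9, which also carries glycerol, was at 0.62 ± 0.31 and -0.06 ± 0.34, not called. Endothelial markers were lower in 7 of 7 cases in both tumor groups, with array medians of 8.05 to 9.64 in treated tumors, 8.62 to 9.59 in spontaneous tumors and 11.10 to 12.30 in control lung, and their part in the fall of Aqp1 was not tested.

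Of the potassium channels that set the driving force for these movements, 11 were tested of 11 listed. In treated tumors 3 rose, 2 fell and 6 were not called, where 38.8% of all genes were called. In spontaneous tumors 2 rose, 2 fell and 7 were not called, where 33.0% of all genes were called. The leak channel gene Kcnk1 rose by 2.07 ± 0.17 in treated and by 2.32 ± 0.19 in spontaneous tumors (limma, adjusted p = 3.0e-07 and 5.4e-07), and Kcnk5 by 1.15 ± 0.30 and 1.07 ± 0.33. The calcium-activated channel genes Kcnma1 and Kcnn4 fell, at -0.75 ± 0.25 and -0.85 ± 0.25 in treated tumors and at -1.0 ± 0.27 and -0.86 ± 0.27 in spontaneous tumors. Over all 7 lists, 20 of 88 genes rose and 10 fell in treated tumors, and 22 rose and 15 fell in spontaneous tumors. Thus 34.1% of the 88 were called in treated tumors, where 38.8% of all genes were, and 42.0% in spontaneous tumors, where 33.0% of all genes were. Between treated and spontaneous tumors limma called 0 of the 88, where 4 had an unadjusted p under 0.05.

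**Figure D3:**
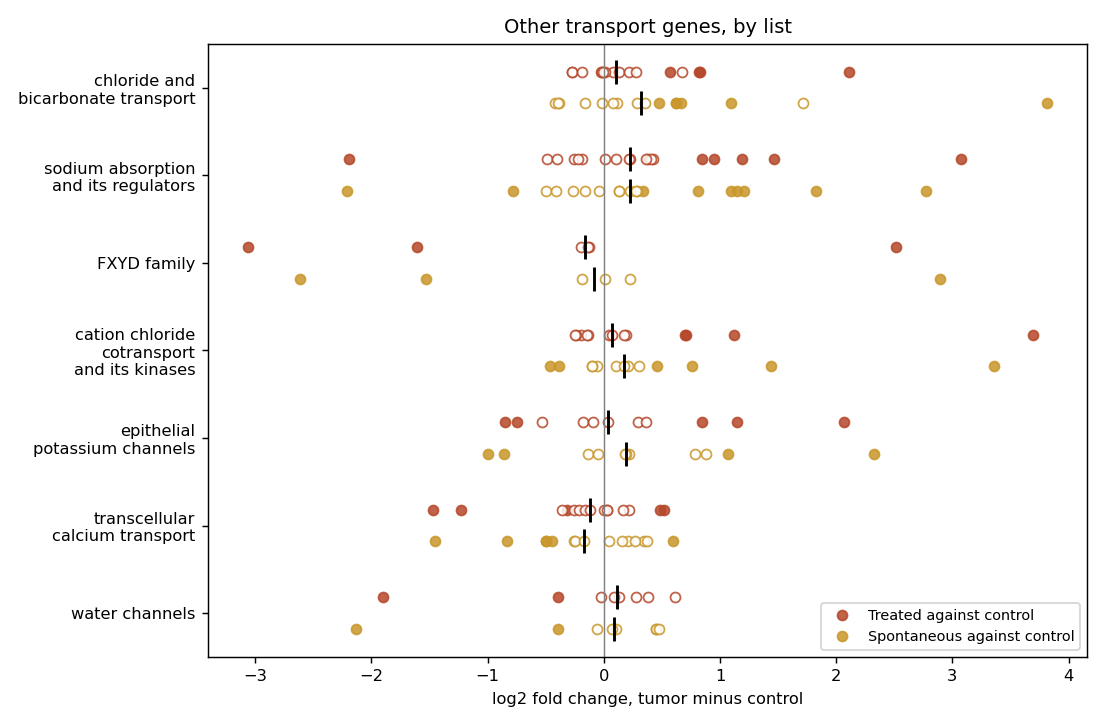
Log2 fold change against control (horizontal axis) of the other transport genes in 7 lists, for treated tumors (upper row of each list) and spontaneous tumors (lower row); filled points have a limma adjusted p under 0.05 over all genes and black ticks mark the list medians. The medians lie between -0.17 and 0.32, and single genes such as Stk39, Slc26a4 and Hsd11b2 lie far to the right.

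Several lists of markers of lung epithelial cells differed between tumor and control, and others did not. The counts below stand against 38.8% of all genes called in treated and 33.0% in spontaneous tumors, in either direction. Airway ciliated cell markers, such as Foxj1, were lower in 8 of 8 cases in both tumor groups, with array medians of 5.17 to 6.46 in treated tumors, 5.29 to 6.28 in spontaneous tumors and 9.41 to 11.10 in control lung. Club cell markers were lower in 4 of 5 cases in treated and 2 of 5 in spontaneous tumors, with array medians of 7.74 to 10.55, 8.24 to 11.26 and, in control lung, 12.98 to 13.64. Scgb3a1, also a club cell marker, went the other way, at 1.61 ± 0.75 in treated and 1.97 ± 0.83 in spontaneous tumors, not called. Alveolar type 1 markers were lower in 6 of 9 cases in both, with array medians of 9.71 to 11.53 in treated tumors, 9.40 to 11.40 in spontaneous tumors and 11.78 to 12.64 in control lung. Alveolar type 2 markers were higher in 7 of 8 cases in both, with array medians of 13.36 to 13.49, 13.45 to 13.62 and, in control lung, 11.95 to 12.96. Ionocyte and basal cell markers were called in 0 of 3 cases each in both tumor groups. Goblet cell markers were higher in 1 of 4 cases in treated tumors and called in 0 of 4 in spontaneous tumors. The part of these cell types in the values of the 9 genes was not tested.

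**Figure D4:**
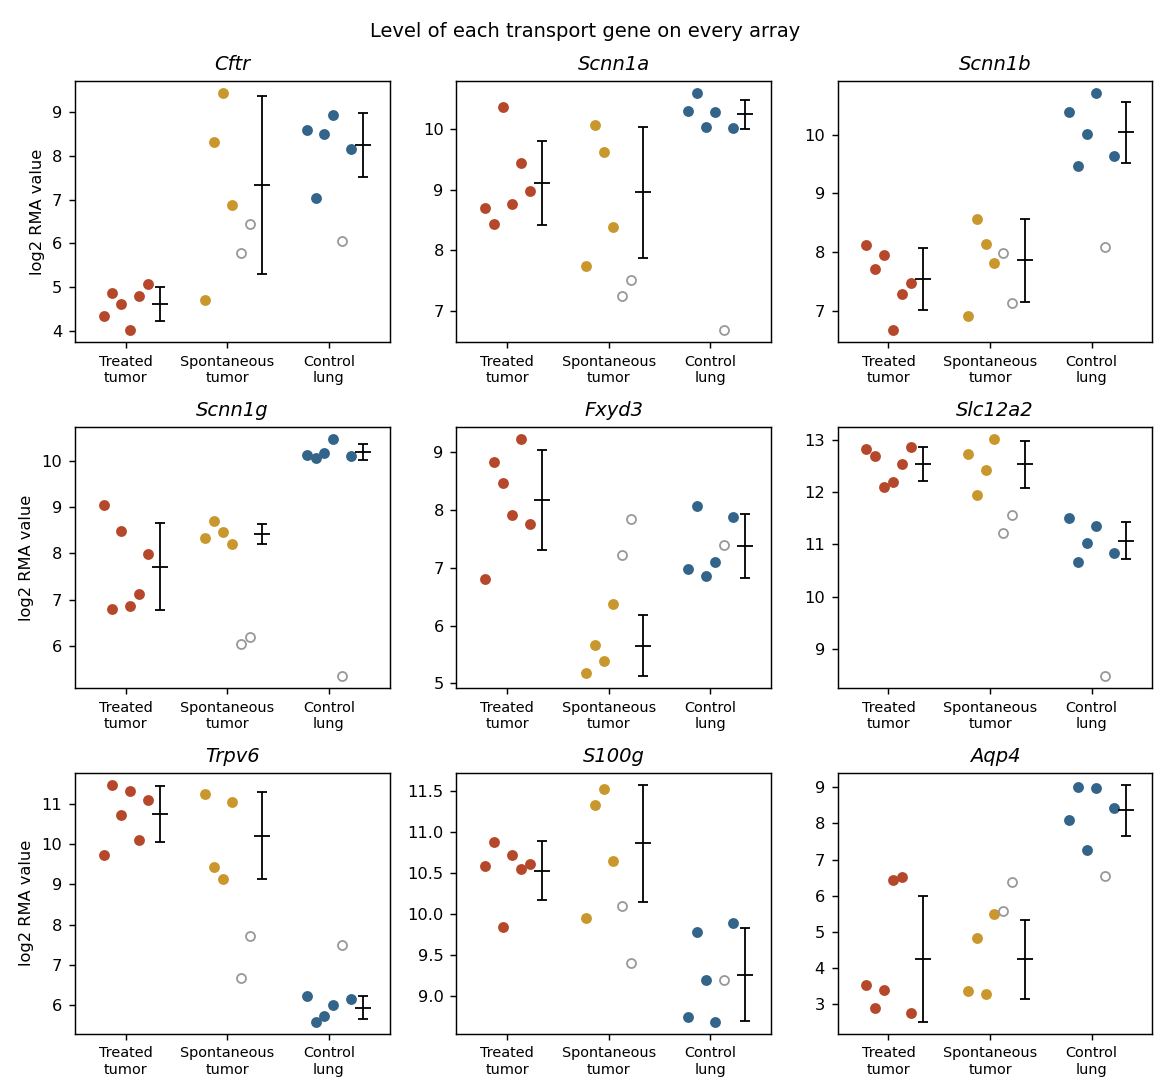
Log2 RMA value (vertical axis) of each of the 9 genes on every array, with treated tumors, spontaneous tumors and control lung from left to right; filled points are the 15 arrays used, open grey points the 3 left out, and bars give mean and SD over the arrays used. Trpv6 and Slc12a2 lie above control in every tumor used, Scnn1b, Scnn1g and Aqp4 below it, and Cftr spreads from 4.71 to 9.45 in spontaneous tumors.

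The 9 genes also varied among the 4 spontaneous tumors, and this was noticed after the values were seen. Spontaneous tumors 1 and 4 had the higher Trpv6, at 11.24 and 11.03, against 9.43 and 9.13 in tumors 2 and 3. The same tumors 1 and 4 had the lower Cftr, S100g, Scnn1a, Scnn1b and Scnn1g and the higher Slc12a2. Aqp4 and Fxyd3 did not follow this order. Alveolar type 1 markers had array medians of 9.40 and 10.56 in tumors 1 and 4 and of 11.40 and 11.30 in tumors 2 and 3. Macrophage markers had 9.85 and 9.50, against 10.89 and 11.37, and T cell markers 6.12 and 6.23, against 7.84 and 7.72. Endothelial, fibroblast, B cell and ionocyte markers were also lower in tumors 1 and 4 than in tumors 2 and 3, and basal cell markers were higher. Alveolar type 2, club, ciliated, goblet, pan-epithelial and smooth muscle markers did not follow this order. With 4 tumors, and an order found in the data, no test was made. Control arrays split as well. Controls 2 and 6 had higher S100g and Fxyd3 and lower Cftr, Scnn1b, Scnn1g and Slc12a2 than controls 1, 3 and 4. Trpv6, Scnn1a and Aqp4 did not follow this split. Macrophage marker medians were 10.64 and 11.37 in controls 2 and 6, and 7.36, 8.52 and 8.05 in controls 1, 3 and 4. Some other marker lists also separated these arrays and others did not. This too was noticed after the values were seen and was not tested. Among treated tumors Trpv6 was lowest in tumor 1, at 9.74, the tumor with the highest Scnn1b and Scnn1g, at 8.12 and 9.05, and with the lowest Fxyd3, at 6.81.

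**Figure D5:**
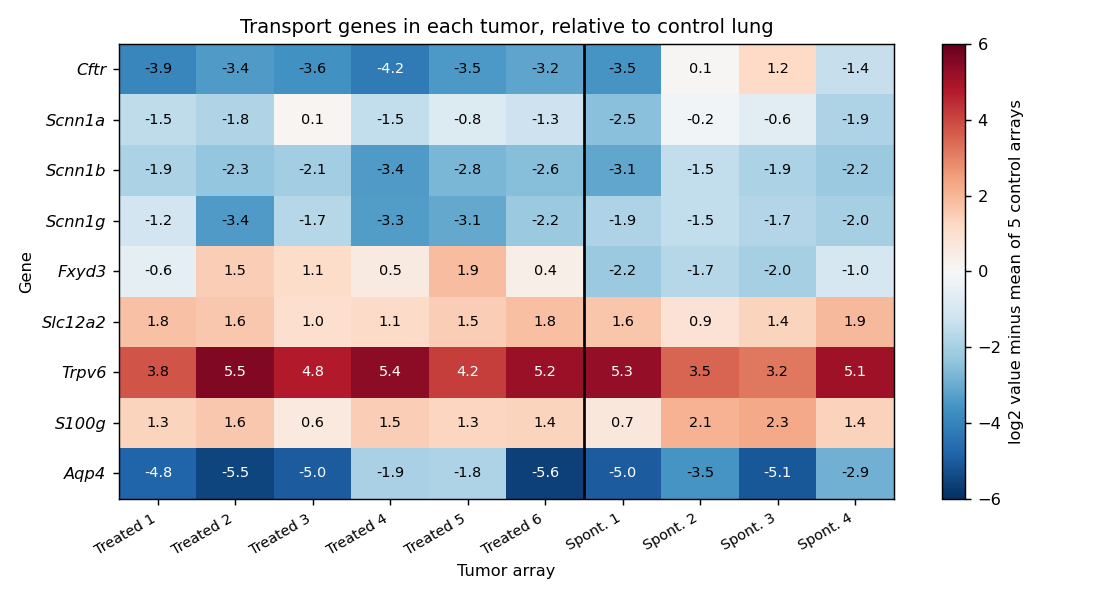
Log2 value of each gene (rows) in each of the 10 tumors used (columns), minus the mean of the 5 control arrays, printed in each cell and coloured from blue (lower than control) to red (higher). Trpv6 is positive in all 10 columns, Scnn1b, Scnn1g and Aqp4 are negative in all 10, and Cftr is near or above 0 in spontaneous tumors 2 and 3.

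For each gene, the most similar profiles among all 18193 genes were found by the root mean square difference of log2 values over the 15 arrays, after each gene was centred on its own mean. This is a description, with no test. Trpv6, whose own root mean square spread was 2.27, was nearest to Slc15a1, an intestinal peptide transporter, at 0.65, and to Apoc1, an apolipoprotein gene, at 0.69. S100g, with a spread of 0.83, was nearest to H2-DMa and H2-Ea, genes of antigen presentation by MHC class II, at 0.27 and 0.32. Slc12a2, with 0.76, was nearest to Zfp704 and Rida, both at 0.24. Aqp4, with 2.27, was nearest to Cdhr4 at 0.98 and to Dynlrb2, a ciliated cell marker, at 0.98. Cftr, with 1.91, was nearest to the transcription factor gene Irx2 at 0.89 and the potassium channel gene Kcnk2 at 0.89. Fxyd3, with 1.19, was nearest to Elovl6, a fatty acid elongase gene, and Ptges, a prostaglandin synthase gene, both at 0.73. The sodium channel genes were nearest to Osmr and Col6a2 for Scnn1a, at 0.30 and 0.34, to Tm4sf1 and Mpdz for Scnn1b, both at 0.32, and to Rasgrp3 and Mak for Scnn1g, at 0.39 and 0.44.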

How the data were processed

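The values were log2 signals of Affymetrix mouse arrays that the authors had made with RMA, per the submitters' processing notes, and deposited for 18 arrays and 45101 probe sets. The version of RMA is not given in the sources used here, and all 18 arrays, the 3 poor ones included, share its normalization. The submitters compared groups with ORIOGEN at a false discovery rate of 5%, per the labels, which was not run here. Of the probe sets, 34945 carried 1 gene symbol, 932 several, 9160 none and 64 were array controls; only the first were used. Per gene, the probe set with the highest mean over 15 arrays was taken, giving 18193 genes. Genes were compared with limma 3.58.1 (R 4.3.3) over 15 arrays, with 1 mean per group, moderated tests and Benjamini-Hochberg adjustment over all genes, called under 0.05. Errors are standard errors of limma, and the number of arrays limits the precision. RMA values carry no detection calls, so differences among low values may understate changes. The 9 genes, the other lists and the alternatives were chosen with earlier results of these data known. Named genes were the 9, up to 4 of each of 7 lists by smallest p, and the 2 most similar profiles. The code was tested on simulated data. Promoter windows came from RefSeq, GRCm38.p6. No array was a copy of another: at most 32 of the values of any pair were identical.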

Additional observations from a re-analysis of the deposited data

Results flagged for a closer look

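Of 27 groups of values, 9 genes in 3 groups, 2 held an array far from the others, where chance alone marks about 5% of such groups. Control 4 read 10.49 in Scnn1g, with the nearest control at 10.18. Treated tumor 3 read 9.84 in S100g, with the nearest treated tumor at 10.55, and it is the array that brought the treated range into the control range. Fxyd3 was set apart because its difference from control was not the same in treated and spontaneous tumors by limma, at 2.52 log2 units (adjusted p = 0.0485), a call that few alternatives kept.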

How the results depend on the processing

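Each of the 27 log2 fold changes of the 9 genes was recomputed in up to 27 alternatives. Of 720 values, 676 stayed on the same side of the threshold, 40 were no longer called, 4 became called and 0 reversed while called. Some differences that were never called changed sign, such as that of Scnn1a between the tumors, at -0.25 to 0.68. All alternatives left 17 of 27 fold changes on the same side of the threshold. With all 18 arrays limma called 1350 genes for treated tumor against control, 757 for spontaneous tumor against control and 0 for treated against spontaneous tumor (1161 at an unadjusted p under 0.05), and 6, 3 and 0 of the 9 genes. Those called in both comparisons with control were then Trpv6, Scnn1b and Aqp4. Array weights over 18 arrays gave 37 genes between the tumors and 2 of the 9, Fxyd3 and Cftr. Leaving out genes with a low mean, which removed Cftr, Fxyd3 and Aqp4, gave 4658 and 4004 genes against control and 0 of the 6 remaining between the tumors. A fold change of at least 2 left 2589 and 2421. Between the tumors, quantile normalization, testing all probe sets and a trend with robust variances each gave 5 genes, 2 higher and 3 lower where the split was 6 and 4, and 0 of the 9, with Fxyd3 at an adjusted p of 0.052, 0.052 and 0.050, and median centring gave 4 higher and 4 lower. Only the 2 groups compared gave 0 genes (1274 unadjusted), as did the exact permutation test (1196), and 0 of the 9. Leaving out 1 array at a time gave 0 to 28 genes and 0 to 1 of the 9 between the tumors, 6083 to 7225 and 7 to 8 for treated tumor against control, and 4993 to 6177 and 7 to 8 for spontaneous tumor against control. The count between tumors was 0 without treated tumor 6 or spontaneous tumor 2 and 28 without treated tumor 1, and the cause was not tested. The correlations did not show the replicate numbers as a pairing. Arrays with the same number correlated by -0.15 to 0.30 in their deviations from group means, 2 of 13 pairs above 0.1. Of 13 arrays, 2 correlated best with their own number. Because the labels do not name the animal, this cannot tell whether arrays of the same number share one. With the replicate block limma called 6417, 5764 and 0 genes (1526 unadjusted) and 8, 8 and 0 of the 9, with Fxyd3 between the tumors at 2.27 (adjusted p = 0.11).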
